A study of Mus musculus with 4 samples.

Results

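This report describes the genes of collagen chains, laminin chains, integrin chains and basement membrane partners in mouse E14 embryonic stem cells targeted at Ssrp1. The members were taken by a pattern of gene symbols, with earlier results of these data known. They are every numbered collagen, laminin and integrin chain gene, Itgav, the nidogens Nid1 and Nid2, Hspg2, Sparc, Serpinh1 and Fn1. They number 81 of the 55353 symbols in the count table, with 44 collagens, 11 laminins, 20 integrins and 6 others. The name pattern leaves out integrins whose symbols end in letters, such as Itgal and Itga2b.

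RNA was measured in 4 libraries of E14 cells, a mouse embryonic stem cell line with strain given as 12910la, grown on gelatin in medium with fetal bovine serum and LIF. The libraries labelled Ssrp1 KO (KO 1 and KO 2 here) came from cells in which Cas9 and a guide RNA had been directed at Ssrp1, a subunit of the histone chaperone FACT. The libraries called control 1 and control 2 are labelled wild type. The treatment text shared by all 4 also mentions an shRNA against Usp7 and a pSuper puro vector given to wild-type cells with puromycin, and leaves unclear if the controls used here were among them. Neither the number of knockout clones nor the origin of the replicates is stated, so p-values reflect only how these particular libraries differ, which may be technical variation.

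Basement membranes are thin sheets of matrix built from a laminin network and a type IV collagen network, which nidogens and the heparan sulphate proteoglycan perlecan (Hspg2) connect. Laminins are trimers of an alpha, a beta and a gamma chain, and collagens are trimers of chains wound into a triple helix inside the endoplasmic reticulum. Integrins are receptors of an alpha and a beta chain that bind these proteins from the cell surface. In the early mouse embryo the epiblast and the primitive endoderm meet at such a membrane, to which the endoderm contributes much of the laminin and type IV collagen.

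Total counts were 22855451 and 23030224 in the libraries labelled KO and 22611434 and 25344190 in the controls. Ssrp1 itself was at 305.5 and 327.3 CPM (normalised counts scaled by library size, the usual CPM unit) in the libraries labelled KO and at 282.2 and 305.7 CPM in the controls, a log2 fold change of 0.11 ± 0.06 (SE) with edgeR adjusted p 0.226. Its transcript was therefore not lower, and a small Cas9 lesion need not lower it, so the level does not check the labels. Gm26917 and Gm42418, which resemble ribosomal RNA, took 4.64% to 6.30% of counts in the libraries labelled KO and 9.72% to 10.3% in the controls. The embryonic stem cell markers were all present, from 128.4 to 1408 CPM. Of 8 tested 1 rose and 6 fell, among them Dppa5a at a log2 fold change of -0.61 and Pou5f1 at -0.37. Over all genes tested 16.5% rose and 17.2% fell, and among those of at least 100 CPM 26.9% and 23.3%. The 1 rise was of Nanog, and 0 of these markers were called higher without control 1 or without control 2.

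The members as a group held about the same share of the RNA in both conditions. They took 0.567% and 0.582% of all counts in the libraries labelled KO and 0.572% and 0.571% in the controls. After scaling, their summed level was 5544 and 5633 CPM in the libraries labelled KO, against 5866 and 5915 CPM in the controls. Fibronectin (Fn1) alone made up 31.7% and 32.8% of that sum in the libraries labelled KO and 36.7% and 35.9% in the controls. Without Fn1 the sums were 3785 and 3788 CPM in the libraries labelled KO and 3714 and 3792 CPM in the controls, so that the groups overlapped.

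Within this nearly level total, single members moved in opposite directions. Of the 81 members, 58 passed the filter on low counts and were tested, and 23 were not. Of those tested, 16 rose (27.6%) and 7 fell (12.1%) at an edgeR adjusted p under 0.05, where 16.5% of all 17482 genes tested rose and 17.2% fell. In all, 39.7% of the tested members were called, and 33.6% of all genes tested. The median log2 fold change of the tested members was 0.13, beside 0.00 for all genes tested, with 33 values above 0 and 25 below. For 48 of the 58 members (82.8%) the values of the groups stood apart, and for 66.6% of all genes tested. Col5a2, Col12a1 and Itga10 passed the low-count filter on the strength of the libraries labelled KO alone, so they could hardly have been called lower. With scaling by library size alone, 63.7% of the calls over all genes were rises in place of 48.95%, and 20 members rose and 6 fell. In bulk RNA, fewer cells that express a gene and less of its RNA per cell cannot be told apart.

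**Figure D1:**
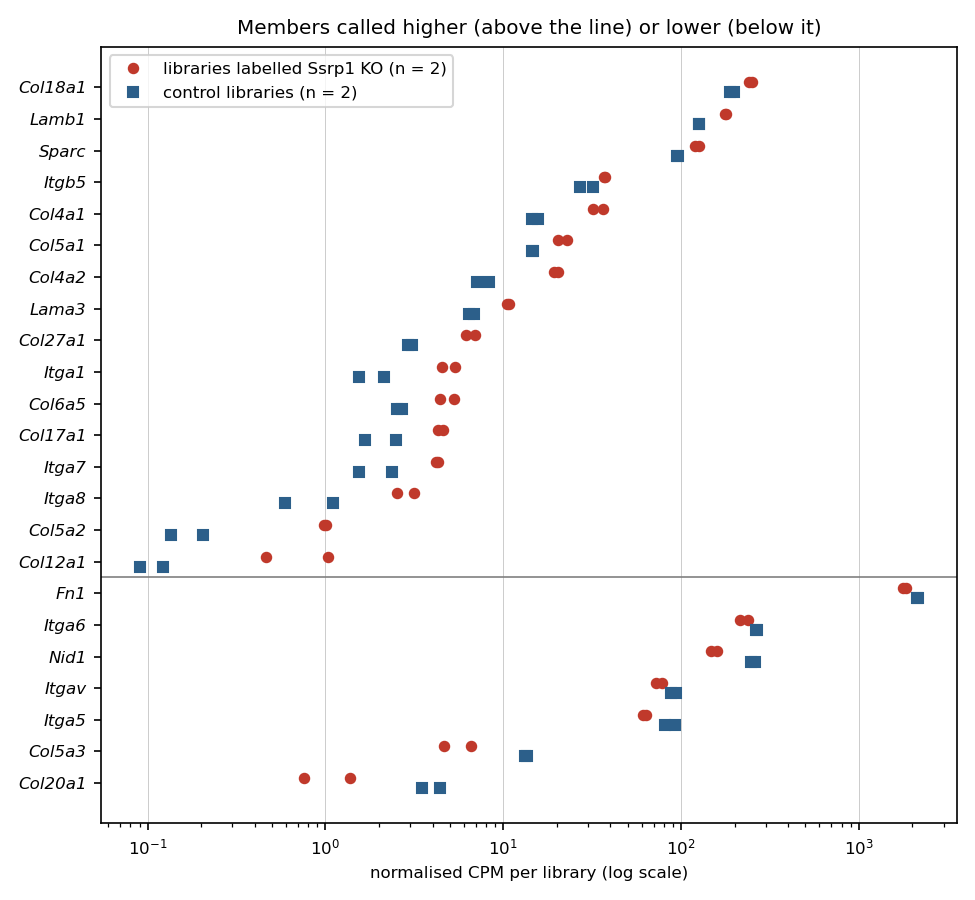
Normalised CPM (log axis) of the 23 called members in each library, with circles for the 2 libraries labelled Ssrp1 KO and squares for the 2 controls. In each gene the 2 groups stand apart, by a small step for abundant genes such as Fn1 and Itga6 and by a wide one for Col5a2, Col12a1, Col20a1 and Col5a3.

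Promoter windows of 4 called members are shown, so that the letters before their start sites can be read beside their values. The windows run from 250 to 61 bases before the annotated start (RefSeq, GRCm38.p6) and lie outside all GENCODE M21 exons. They belong to the 2 risen and the 2 fallen members with the smallest adjusted p among those with 1 start in the table and a window free of exons. Capitals mark matches to the GC box GGGCGG, the CCAAT box CCAAT or the GATA motif AGATAA on either strand. Of all 32841 promoter windows of this length, 22.9% held the GC box, 26.8% the CCAAT box and 8.06% the GATA motif. Lamb1 (higher) lies at chr12:31265043-31265232, plus strand. Itga1 (higher) lies at chr13:115102025-115102214, minus strand. Nid1 (lower) lies at chr13:13437352-13437541, plus strand. Col5a3 (lower) lies at chr9:20815128-20815317, minus strand.
Lamb1: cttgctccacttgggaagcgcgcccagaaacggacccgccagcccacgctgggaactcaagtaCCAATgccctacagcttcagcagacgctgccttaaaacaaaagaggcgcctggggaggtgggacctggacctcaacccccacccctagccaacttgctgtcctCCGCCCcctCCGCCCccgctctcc
Itga1: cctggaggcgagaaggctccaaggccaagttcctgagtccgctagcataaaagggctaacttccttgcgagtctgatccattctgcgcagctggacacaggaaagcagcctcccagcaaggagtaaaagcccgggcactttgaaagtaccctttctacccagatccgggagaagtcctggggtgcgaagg
Nid1: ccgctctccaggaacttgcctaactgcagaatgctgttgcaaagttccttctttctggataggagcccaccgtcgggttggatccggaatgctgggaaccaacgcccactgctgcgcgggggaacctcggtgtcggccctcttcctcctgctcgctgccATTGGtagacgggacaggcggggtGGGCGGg
Col5a3: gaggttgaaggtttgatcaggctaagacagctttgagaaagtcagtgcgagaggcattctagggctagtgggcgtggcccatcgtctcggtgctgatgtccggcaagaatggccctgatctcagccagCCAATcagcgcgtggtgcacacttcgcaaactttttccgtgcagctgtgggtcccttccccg

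The Lamb1 window held 2 GC boxes and 1 CCAAT box, the Nid1 window 1 of each, the Col5a3 window 1 CCAAT box and the Itga1 window none of the 3 motifs. RefSeq windows were found for 59 of the 81 members. A GC box was present for 5 of 12 risen members with a window, 2 of 5 fallen members, 11 of 23 members not called and 4 of 19 not tested. The GATA motif was found for 0 risen members, 0 fallen members, 1 member not called and 0 not tested. A member was counted if any of its windows held the motif. The shares over all windows are per window, so the 2 measures are not alike. These letters are a description of the windows and bear on no factor.

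Among the tested type IV collagen, laminin and linker genes, the largest rises were of Col4a1 and Col4a2. Col4a1, the chain that with Col4a2 forms the common type IV trimer, was at 36.2 and 32.1 CPM in the libraries labelled KO and at 14.6 and 15.6 CPM in the controls. Col4a2 was at 19.2 and 20.3 CPM in the libraries labelled KO and at 7.07 and 8.33 CPM in the controls. Every library labelled KO lay above both controls for both chains. The log2 fold changes were 1.18 ± 0.11 for Col4a1 (edgeR adjusted p 8.3e-08) and 1.36 ± 0.14 for Col4a2 (2.2e-07). Per kilobase of exon, the level of Col4a1 relative to Col4a2 was 1.68 and 1.40 in the libraries labelled KO and 1.82 and 1.66 in the controls, so the ratio overlapped between the groups.

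These genes are neighbours that point away from each other. Col4a1 runs from 11312826 down to 11198423 on the minus strand of chromosome 8 and Col4a2 from 11312805 up to 11449287 on the plus strand (mm10). Their annotated first exons share 22 bases, shown because both RNAs begin within them, with a GC box in capitals, at chr8:11312805-11312826, plus strand.
Col4a1 and Col4a2: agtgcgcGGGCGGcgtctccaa

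The other type IV chains, which replace the common ones in kidney, lens and other specialised membranes, stayed near the floor. Col4a5 was at 0.513 and 0.546 CPM in the libraries labelled KO and at 0.589 and 0.735 CPM in the controls (log2 fold change -0.32 ± 0.53, edgeR adjusted p 0.684). Col4a3 had 0 counts in all 4 libraries. Its head-to-head neighbour Col4a4 had 0 counts in the libraries labelled KO and 5 and 7 in the controls. With the libraries labelled KO set at 3 counts over the group, Col4a4 would be 4.06-fold lower. Col4a6 had 0 and 2 counts in the libraries labelled KO and 3 and 0 in the controls. Col4a3, Col4a4 and Col4a6 were too low for the test.

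Markers of primitive and parietal endoderm, the cells that secrete type IV collagen and laminin in the early embryo, moved with this pair. Of 16 markers, listed with earlier results of these data known, 11 were tested. Of those tested 8 rose and 1 fell, where 16.5% of all genes tested rose and 17.2% fell. The summed level of the 16 was 172.3 and 180.3 CPM in the libraries labelled KO, against 106.1 and 102.1 CPM in the controls. At a filter of 5 CPM the number that rose was 5, and Sox17 and Srgn passed the usual filter through the libraries labelled KO alone. Gata6, a transcription factor of primitive endoderm, was at 4.58 and 4.08 CPM in the libraries labelled KO and at 0.589 and 0.858 CPM in the controls. Dab2, an endocytic adaptor, was at 9.63 and 12.1 CPM in the libraries labelled KO and at 2.86 and 2.37 CPM in the controls. Hnf4a, a factor of visceral endoderm, fell by 1.07 on the log2 scale, and the visceral endoderm products Ttr and Afp had 0 counts in all 4 libraries. The part of such cells in the collagen values was not tested.

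**Figure D2:**
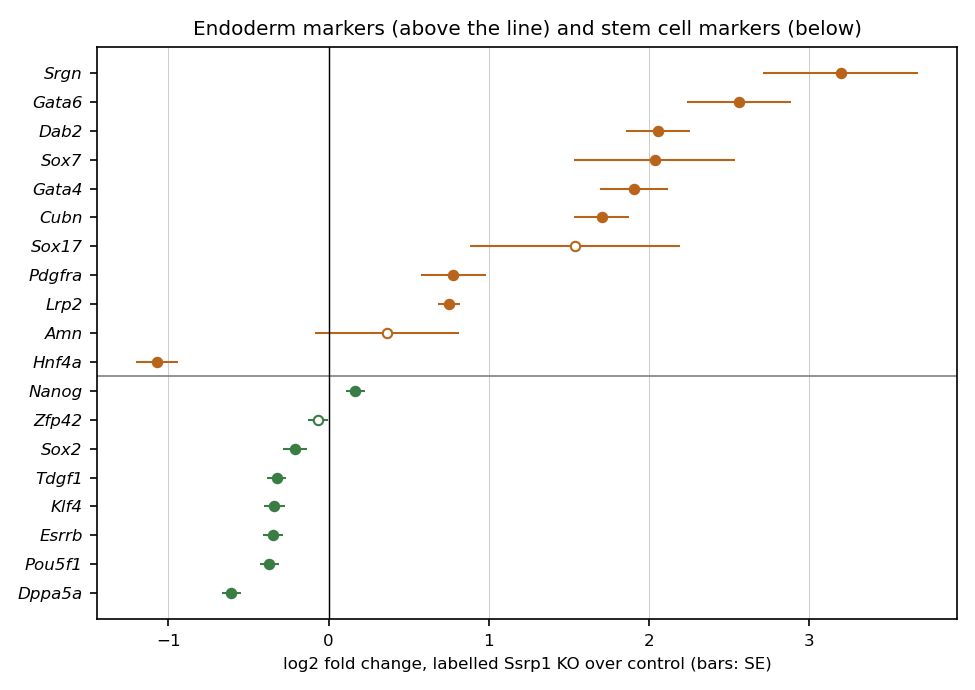
Log2 fold changes (libraries labelled Ssrp1 KO over controls, n = 2 each, bars SE) of the 11 tested endoderm markers above the line and of the 8 embryonic stem cell markers below it, filled where the adjusted p was under 0.05. Of the endoderm markers 8 lie to the right as called rises, while 6 of the 8 stem cell markers lie to the left as called falls. Over all genes tested, 16.5% rose and 17.2% fell.

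Among the laminins, Lamb1 and Lama3 rose while the other 7 tested chains were not called. The share called was 22.2%, beside 33.6% of all genes tested. Lamb1, the beta chain shared by the laminins of the early embryo, was at 176.5 and 179.2 CPM in the libraries labelled KO and at 125.3 and 125.5 CPM in the controls. The step between groups was far wider than the spread within either, with a log2 fold change of 0.50 ± 0.06 (edgeR adjusted p 4.3e-06). Lama3, an alpha chain known from epithelial laminin, was at 10.7 and 10.5 CPM in the libraries labelled KO and at 6.80 and 6.45 CPM in the controls (0.68 ± 0.15, adjusted p 0.0019 by edgeR). Lamb3, the beta chain that joins Lama3 in that laminin, was at a log2 fold change of 0.64 ± 0.32 and was not called.

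The chains that Lamb1 pairs with showed little or no step. Lamc1, the common gamma chain, was at 507.5 and 529.7 CPM in the libraries labelled KO and at 481.0 and 456.7 CPM in the controls. Those groups did not overlap, and the log2 fold change of 0.15 ± 0.06 missed the threshold (edgeR adjusted p 0.070), but passed it without KO 1 (9.2e-04), with scaling by library size alone (0.0073) and at a filter of 5 CPM (0.039). Lama1, the alpha chain of the first embryonic laminin, was at 95.3 and 89.7 CPM in the libraries labelled KO and at 99.4 and 92.3 CPM in the controls, with overlapping groups. Lama5, the alpha chain of the laminin that supports stem cell growth, was at 326.7 and 334.3 CPM in the libraries labelled KO and at 304.3 and 304.8 CPM in the controls (0.12 ± 0.06, adjusted p 0.143 by edgeR).

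Per kilobase of exon, Lamb1 lay below Lamc1 in both groups, by less in the libraries labelled KO. Its level relative to Lamc1 was 0.29 and 0.28 in the libraries labelled KO and 0.22 and 0.23 in the controls. Relative to the other widely expressed beta chain, Lamb2, it was 2.92 and 2.79 in the libraries labelled KO and 1.82 and 1.91 in the controls. Lama5 relative to Lamc1 stayed between 0.458 and 0.485 in all 4 libraries.

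Of the proteins that link the laminin and collagen networks, Nid1 fell and its paralog Nid2 did not pass the test. Nid1, which binds laminin gamma chains and type IV collagen, was at 147.0 and 158.4 CPM in the libraries labelled KO and at 246.8 and 260.0 CPM in the controls. Its fall, by 0.73 on the log2 scale (SE 0.07), had the smallest edgeR adjusted p of all members at 5.0e-08. Nid2 was at 670.8 and 677.8 CPM in the libraries labelled KO and at 629.5 and 672.0 CPM in the controls, with overlapping groups and a log2 fold change of 0.05 ± 0.06. Per kilobase, Nid1 stood at 0.163 and 0.174 of the Nid2 level in the libraries labelled KO and at 0.292 and 0.288 in the controls. Perlecan (Hspg2) was at 413.2 and 420.7 CPM in the libraries labelled KO and at 449.8 and 478.9 CPM in the controls. Its log2 fold change of -0.16 ± 0.06 missed the threshold (edgeR adjusted p 0.054), but passed it without KO 1 (0.013), without KO 2 (0.0025) or with no low-count filter (0.030).

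Fibronectin, the most abundant member, fell slightly. Fn1, an RGD-bearing protein that integrins assemble into fibrils, was at 1759 and 1845 CPM in the libraries labelled KO and at 2152 and 2123 CPM in the controls (log2 fold change -0.25 ± 0.05, edgeR adjusted p 0.0016). Sparc encodes a calcium-binding protein that binds collagens. It was at 119.7 and 125.7 CPM in the libraries labelled KO and at 94.95 and 96.31 CPM in the controls. Its rise, at 0.36 ± 0.07 (edgeR adjusted p 2.9e-04), was in the direction of the type IV chains. Serpinh1, the chaperone HSP47 of procollagen, did not follow: it was at 24.3 and 24.7 CPM in the libraries labelled KO and at 24.6 and 20.7 CPM in the controls, with overlapping groups. Col18a1, whose product is a basement membrane collagen with a heparan sulphate chain and the source of endostatin, was the most abundant collagen at 249.6 and 241.5 CPM in the libraries labelled KO and 189.2 and 197.3 CPM in the controls. It rose by a log2 fold change of 0.35 ± 0.06 (edgeR adjusted p 2.5e-04). Col18a1 overlaps Slc19a1 on the other strand, and reads of the pair could have been mixed if counting ignored strand.

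**Figure D3:**
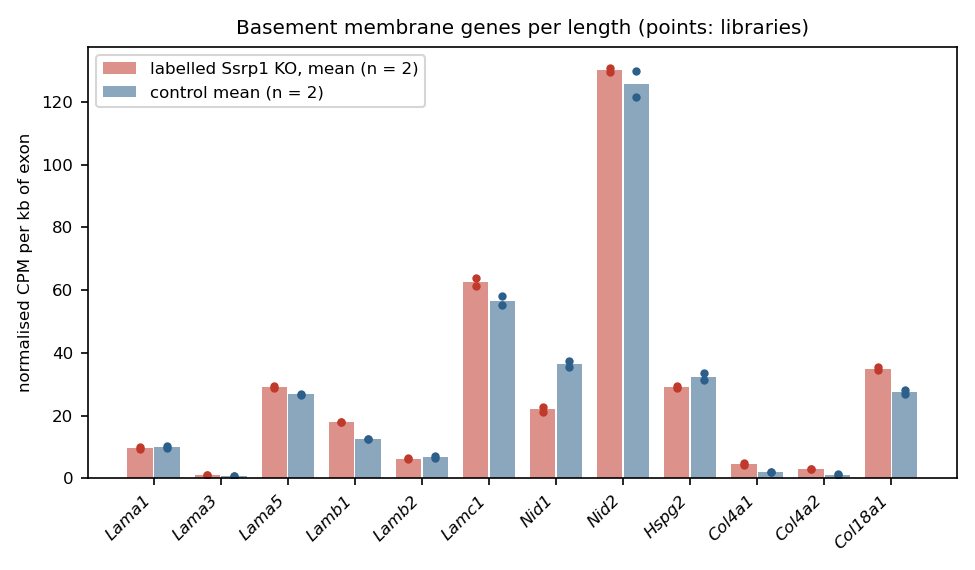
Normalised CPM per kilobase of exon for 12 basement membrane genes, with bars for the mean of the 2 libraries labelled Ssrp1 KO and of the 2 controls, and points for single libraries. Nid2 and Lamc1 stand highest in both groups, Nid1 is lower and Lamb1, Col18a1, Col4a1 and Col4a2 are higher in the libraries labelled KO.

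The levels of the members spanned several orders of magnitude, and the 4 highest per kilobase of all annotated exons came in the same order in both groups. Per kilobase of exon, Fn1 led with 154.2 ± 5.23 CPM in the libraries labelled KO and 182.9 ± 1.76 CPM in the controls (SD, n = 2). Nid2 followed with 130.3 ± 0.96 CPM per kilobase in the libraries labelled KO and 125.8 ± 5.81 in the controls. Itgb1, with 70.9 ± 3.23 CPM per kilobase in the libraries labelled KO and 76.8 ± 1.505 in the controls, and Lamc1, with 62.7 ± 1.90 in the libraries labelled KO and 56.7 ± 2.08 in the controls, came next. With the length of the longest coding transcript in place of all annotated exons, Fn1, Nid2 and Itgb1 kept their places in both groups. Lamc1 was then next in the libraries labelled KO, while in the controls Itga6, at 61.6 CPM per kilobase, and Lamc1, at 61.5, were level. Col4a1, at 4.58 CPM per kilobase in the libraries labelled KO and 2.02 in the controls, was far under Lamc1, Nid1 and Nid2 in both groups.

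The fibrillar collagens, which form the fibres of connective tissue, were sparse and mixed. Of 11 members 8 were tested, of which 3 rose (37.5%) and 1 fell (12.5%), beside 16.5% and 17.2% of all genes tested. Type V collagen, which sets the width of fibrils, supplied 3 of these 4 calls, in both directions. Col5a1 was at 20.4 and 22.7 CPM in the libraries labelled KO and at 14.6 and 14.6 CPM in the controls (0.56 ± 0.12, edgeR adjusted p 9.0e-04). Col5a3 went the other way, at 6.55 and 4.62 CPM in the libraries labelled KO and 13.6 and 13.2 CPM in the controls (-1.26 ± 0.17, adjusted p 7.9e-06 by edgeR). Col5a2, named after its values were seen, had 23 and 24 counts in the libraries labelled KO and 3 and 5 in the controls, a log2 fold change of 2.50 ± 0.61. Col3a1, which ends 24614 bases from Col5a2 on chromosome 1, had 6 and 9 counts in the libraries labelled KO and none in the controls. With the controls set at 3 counts over the group, Col3a1 would be 4.93-fold higher.

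Col27a1, a fibrillar chain of cartilage, was at 6.204 and 6.935 CPM in the libraries labelled KO and at 3.08 and 2.90 CPM in the controls (1.13 ± 0.21, edgeR adjusted p 2.6e-04). The chains of type I collagen, the main collagen of fibroblasts, were low: Col1a1 was at 2.48 and 2.40 CPM in the libraries labelled KO and 2.27 and 1.71 CPM in the controls, and Col1a2 had at most 5 counts in any library. Of 12 fibroblast markers 4 were tested, of which Tagln rose and Pdgfrb fell (a call lost with DESeq2, with library size alone and without control 2), and Postn, Dcn, Lum, S100a4, Prrx1 and Fap had 0 counts in all 4 libraries. Most of the list's level came from Pdgfrb, at 15.6 and 15.0 CPM in the libraries labelled KO and 18.8 and 21.2 CPM in the controls, and Thy1, at 13.0 and 16.7 CPM in the libraries labelled KO and 16.73 and 16.01 CPM in the controls. The summed level of the 12 was 31.1 and 34.5 CPM in the libraries labelled KO and 37.2 and 39.2 CPM in the controls. Of the 4 fibroblast markers tested 50% were called, beside 33.6% of all genes tested.

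Among the remaining collagens, 3 rose and 1 fell. Those tested were 6 collagens associated with fibrils, 3 membrane-spanning collagens and 8 others. Over all genes tested, 16.5% rose and 17.2% fell. Col17a1, a transmembrane collagen of epithelial hemidesmosomes, was at 4.58 and 4.29 CPM in the libraries labelled KO and at 2.49 and 1.68 CPM in the controls (1.09 ± 0.27, edgeR adjusted p 0.0031). Col6a5, a chain of beaded-filament collagen VI, was at 4.41 and 5.25 CPM in the libraries labelled KO and at 2.54 and 2.70 CPM in the controls (0.88 ± 0.24, adjusted p 0.0063 by edgeR). Its neighbours on chromosome 9 were not called: Col6a6 had a log2 fold change of 1.00 ± 0.40 and Col6a4 of -0.49 ± 0.22. Col20a1, a collagen of the class found on fibril surfaces, was at 1.37 and 0.757 CPM in the libraries labelled KO and at 3.49 and 4.41 CPM in the controls (-1.89 ± 0.33, edgeR adjusted p 1.4e-04). Col12a1, of the same class, had 24 and 11 counts in the libraries labelled KO and 2 and 3 in the controls. Its call (log2 fold change 2.73 ± 0.74, edgeR adjusted p 0.0069) was lost without control 1 (0.086), without control 2 (0.061) or without KO 1 (0.229).

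**Figure D4:**
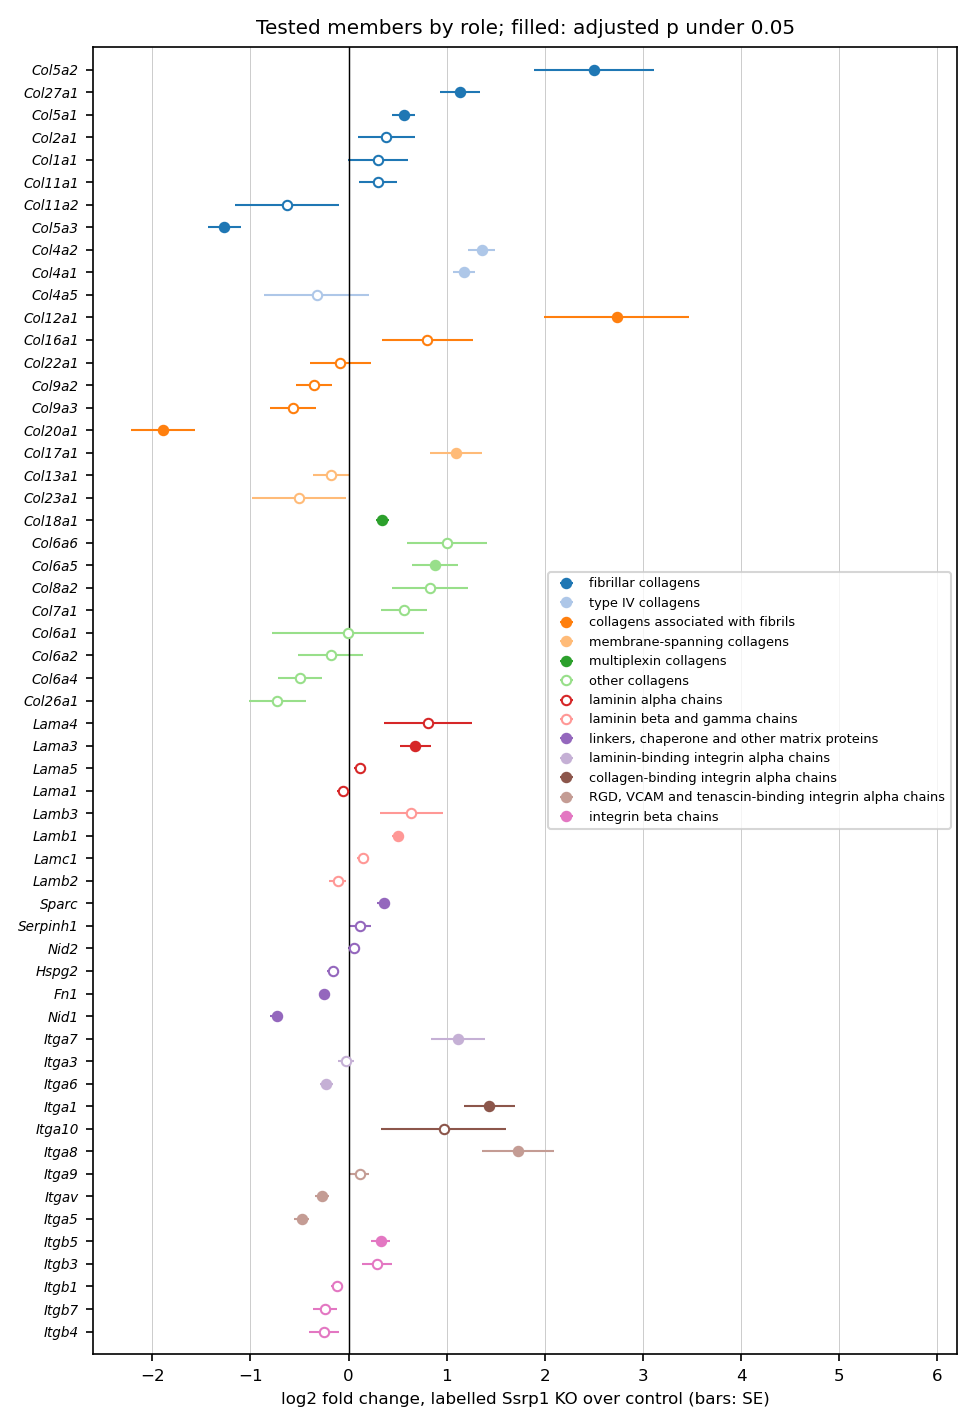
Log2 fold change (libraries labelled Ssrp1 KO over controls, n = 2 each, bars SE) of the tested members except 1 that is left out, ordered by role and by size within it, filled where the adjusted p was under 0.05. Most roles hold values on both sides of 0, and wide bars belong to genes with few counts such as Col12a1, Col6a1 and Itga10.

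Among 9 tested integrin alpha chains 3 rose and 3 fell, where 16.5% of all genes tested rose and 17.2% fell. The falls were of chains above 60 CPM in every library. Itga5, the alpha chain of the classical fibronectin receptor, was at 60.7 and 63.8 CPM in the libraries labelled KO and at 92.6 and 80.9 CPM in the controls (log2 fold change -0.48 ± 0.08, edgeR adjusted p 8.5e-05). Itgav, the alpha chain of vitronectin receptors, was at 77.7 and 72.7 CPM in the libraries labelled KO and at 87.4 and 93.9 CPM in the controls (-0.27 ± 0.07, adjusted p 0.0065 by edgeR), a call lost without control 2 (0.147). Itga6, the laminin receptor chain that marks embryonic stem cells, was at 237.8 and 215.7 CPM in the libraries labelled KO and at 263.8 and 267.1 CPM in the controls (-0.23 ± 0.07, edgeR adjusted p 0.010). The Itga6 call was lost without control 1 (0.076), without control 2 (0.113) and with scaling by library size alone (0.092).

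The rises were of alpha chains at a few CPM. Itga1, which with Itgb1 binds type IV collagen, was at 4.54 and 5.38 CPM in the libraries labelled KO and at 2.13 and 1.55 CPM in the controls (1.43 ± 0.26, edgeR adjusted p 2.5e-04). The gene Pelo lies inside Itga1 on the same strand, and the handling of reads that fit both is not given in the sources used here. Itga7, a laminin receptor chain of muscle, was at 4.28 and 4.16 CPM in the libraries labelled KO and at 2.36 and 1.55 CPM in the controls (1.12 ± 0.27, adjusted p 0.0034 by edgeR). Itga8, which binds nephronectin, was at 3.17 and 2.52 CPM in the libraries labelled KO and at 0.589 and 1.10 CPM in the controls (1.73 ± 0.37, edgeR adjusted p 0.0011). In each of these genes both libraries labelled KO lay above both controls.

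The beta chain that all 3 of these alpha chains use was not called. Itgb1 was at 298.7 and 280.1 CPM in the libraries labelled KO and at 309.0 and 317.7 CPM in the controls. Its log2 fold change of -0.11 ± 0.06 missed the threshold (edgeR adjusted p 0.169), but passed it without KO 1 (0.0088). Itgb5, a partner of Itgav, was the 1 called beta chain, at 37.1 and 36.7 CPM in the libraries labelled KO and 27.0 and 31.8 CPM in the controls (0.33 ± 0.10, edgeR adjusted p 0.014), and its call was lost without control 1 (0.290). The share called among the 5 tested beta chains was 20%, beside 33.6% of all genes tested. Itga3 and Itga9, at log2 fold changes of -0.03 ± 0.08 and 0.11 ± 0.10, were not called.

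Of the beta chains known from leukocytes, Itgb2 was near 0 and Itgb7 was not. Itgb7, which pairs with Itga4 or Itgae, was at 18.9 and 17.7 CPM in the libraries labelled KO and at 19.3 and 23.8 CPM in the controls (-0.24 ± 0.12, edgeR adjusted p 0.135), and was not called. Itgb2, the beta chain of leukocyte integrins, had 9 and 16 counts in the libraries labelled KO and 1 and 0 in the controls, a ratio of 24.7 with a 95% Clopper-Pearson counting interval of 4.04 to 1012. Itgb2 was too low for the test. Ptprc had at most 2 counts in a library, and Lyz2 and Tyrobp had 0 in all 4. Of 6 leukocyte markers 2 were tested, of which 0 rose and Cd68 fell, where 16.5% of all genes tested rose and 17.2% fell. The sum of the 6 leukocyte markers was 15.6 and 14.5 CPM in the libraries labelled KO and 26.8 and 27.6 CPM in the controls. Outside the name pattern, 3 of 8 integrin genes were tested, and 33.3% of these were called, beside 33.6% of all genes tested. The called gene, Itga2b, rose to 3.12 and 4.33 CPM in the libraries labelled KO, against 1.90 and 2.17 CPM in the controls (0.87 ± 0.28, edgeR adjusted p 0.020). That call was lost without control 1 (0.078), without KO 2 (0.191) and with DESeq2 (0.067). Of 6 endothelial markers 4 were tested, and Tek rose to 17.2 and 17.3 CPM in the libraries labelled KO, against 5.94 and 7.96 CPM in the controls. The other called endothelial marker, Kdr, lost its call without any 1 of the libraries and with DESeq2, and Cdh5 had at most 4 counts in a library. Of the 4 endothelial markers tested 50% were called, beside 33.6% of all genes tested. The 6 endothelial markers summed to 19.3 and 20.1 CPM in the libraries labelled KO and to 7.30 and 10.3 CPM in the controls. The part of such cells in the values above was not tested.

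The 23 untested members were low throughout, with at most 25 counts over both libraries labelled KO and at most 14 over both controls. Besides Col4a3, Col10a1 had 0 counts in all 4 libraries. A member with no count in the controls, Col9a1, had 6 and 4 counts in the libraries labelled KO. With the controls set at 3 counts over the group, Col9a1 would be 3.29-fold higher. Col25a1 had 21 counts over the libraries labelled KO and 2 over the controls, a ratio of 10.4 with a 95% interval of 2.53 to 91.1. Col28a1 had 13 and 1, a ratio of 12.8 with an interval of 1.93 to 545. For Itga11 (7 and 1 counts) and Col8a1 (8 and 3 counts) the interval included a ratio of 1.

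**Figure D5:**
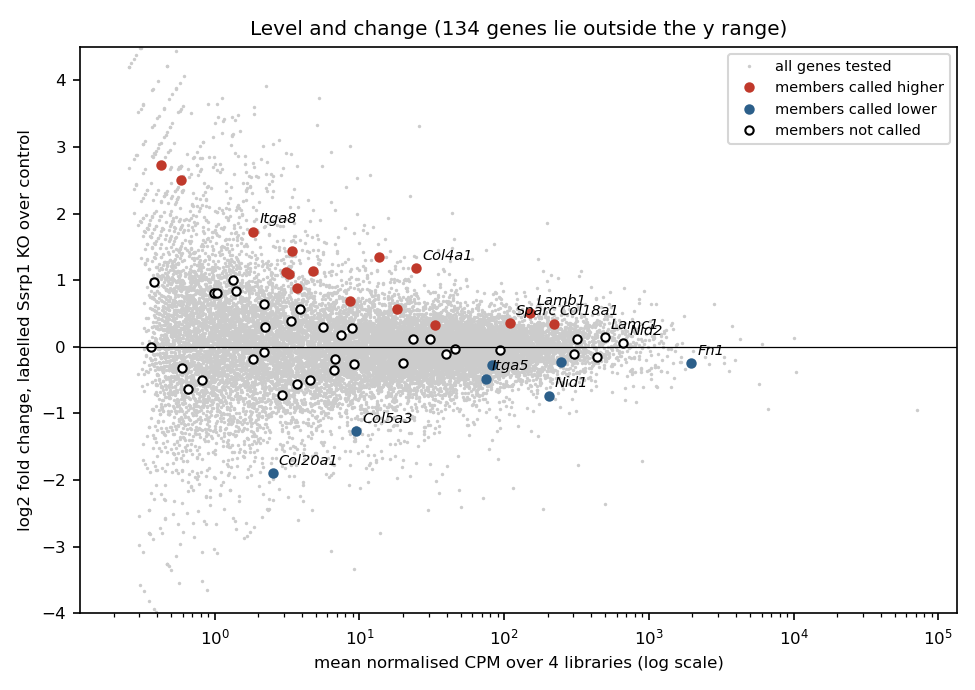
Log2 fold change (libraries labelled Ssrp1 KO over controls) against mean normalised CPM (log axis) for all 17482 genes tested in grey and the 58 tested members in colour, with 134 genes outside the y range. The 11 members of at least 100 CPM lie between -0.73 and 0.50, while members under 10 CPM reach from -1.89 to 2.73.

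The fold changes of members under 10 CPM spanned a wider range, as the plot of level and change shows. More members were tested at that level and their errors were larger, with an SE of 0.74 for Col12a1 and 0.06 for Lamb1. A link between level and size of change was not tested. Of 35 tested members under 10 CPM on average, 9 rose and 2 fell, where 13.1% and 10.3% of the genes at that level did. Among the 9 are Col5a2 and Col12a1, which passed the low-count filter through the libraries labelled KO alone. Itga10, also among the 35, passed it the same way and was not called. These genes could hardly have been called lower. Of 11 members of at least 100 CPM, 3 rose and 3 fell, where 26.9% and 23.3% of the genes at that level did. The abundant members that rose were Lamb1, Sparc and Col18a1, and those that fell were Fn1, Itga6 and Nid1.

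Enzymes that modify, fold and cross-link collagen were called about as often as all genes tested, in both directions. Of 32 listed, 26 were tested, of which 3 rose and 5 fell, with a median log2 fold change of -0.04. The share called was 30.8%, near the 33.6% of all genes tested. Without control 1 none rose, without KO 2 the number that rose was 5, and with scaling by library size alone it was 7. Pcolce, which enhances the cleavage of fibrillar procollagen, was at 54.2 and 57.2 CPM in the libraries labelled KO and at 89.3 and 90.2 CPM in the controls (-0.69 ± 0.07, edgeR adjusted p 4.4e-07). Loxl2 encodes a lysyl oxidase. It was at 30.5 and 32.2 CPM in the libraries labelled KO and at 47.7 and 42.8 CPM in the controls. Its log2 fold change was -0.53 ± 0.09 (adjusted p 1.5e-04 by edgeR). The rises were of P4ha2, Ppib and Pxdn, at log2 fold changes from 0.28 to 0.34.

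Other basement membrane genes moved both ways. Of 21 listed, 15 were tested, of which 4 rose and 4 fell. The share called was 53.3%, beside 33.6% of all genes tested. At a filter of 5 CPM the number that rose was 2. Ntn1, a laminin-related guidance cue, was at 22.3 and 24.0 CPM in the libraries labelled KO and at 78.8 and 65.6 CPM in the controls (-1.64 ± 0.10, edgeR adjusted p 1.0e-10). Smoc1, a matrix protein of the Sparc family, was at 22.2 and 20.8 CPM in the libraries labelled KO and at 10.8 and 11.1 CPM in the controls (0.97 ± 0.12, adjusted p 3.9e-06 by edgeR). Agrn, which encodes the proteoglycan agrin, differed by 0.04 ± 0.06 and was not called.

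A list of 21 genes held adaptors between integrins and actin together with integrin partners at the cell surface such as Cd47 and Cd151. All 21 were tested, and 4 rose (Tln1, Ilk, Bcar1 and Cd47) and 3 fell, with a median of 0.04. The share called was 33.3%, near the 33.6% of all genes tested. Parvb, a parvin that joins the integrin-linked kinase complex, was at 67.5 and 76.3 CPM in the libraries labelled KO and at 143.7 and 144.8 CPM in the controls (-1.005 ± 0.07, edgeR adjusted p 2.0e-09). Tns1, a tensin of fibrillar adhesions, was at 33.1 and 29.5 CPM in the libraries labelled KO and at 50.2 and 53.7 CPM in the controls (-0.73 ± 0.09, adjusted p 3.1e-06 by edgeR). The number that rose was 2 with DESeq2, 1 without control 1 and 2 without control 2.

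Of 13 matrix proteases and inhibitors, 11 were tested, and 4 rose and 2 fell. The share called was 54.5%, beside 33.6% of all genes tested. Among the rises was Mmp2, named after its values were seen, at a log2 fold change of 0.62 ± 0.10 (edgeR adjusted p 1.1e-04). It was at 41.8 and 37.9 CPM in the libraries labelled KO and at 23.3 and 28.4 CPM in the controls. Mmp11, a metalloprotease, was at 22.7 and 21.6 CPM in the libraries labelled KO and at 36.7 and 36.4 CPM in the controls (-0.72 ± 0.10, adjusted p 9.0e-06 by edgeR). The number that fell was 1 without control 2, without KO 1, with DESeq2 and with scaling by library size alone.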

How the data were processed

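Gene counts from 4 ribosomal-RNA-depleted libraries were used; the labels do not say that the kit marked strand. The tools named per the submitters' processing notes are featureCounts, HISAT2 and cutadapt, with the build mm10. The sources used here give no versions, annotation release, strand setting or handling of multiply matching reads. The deposited table holds whole-number counts for each symbol not normalized, for 55353 symbols, of which 26633 were 0 throughout. Columns spelled OK were mapped to KO titles by gene, role and number, and 0 columns stayed unmapped.

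The members, lists, tests and alternatives were chosen with earlier results of these data known. The filter filterByExpr in edgeR 4.0.16 (R 4.3.3, minimum count 10, minimum total 15) left 17482 genes. On these, edgeR's quasi-likelihood F test set the libraries labelled KO against the controls after TMM scaling (prior count 0.125, 2 residual degrees of freedom, no other term). P-values were adjusted by Benjamini and Hochberg's method across the 17482 genes, and 0.05 was the threshold. The CPM printed use the TMM-scaled library sizes. The SE of a log2 fold change is that change over the root of the F statistic, without sign. An exact permutation of 2 against 2 libraries cannot go below p = 0.333, so none was run. DESeq2 1.42.0, other scalings and filters, a replicate block and leaving out each library were tried.

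A simulated comparison of knockout and control held 17482 genes. Of these, 17282 were left unchanged, and edgeR called 9 of them. Of 50 genes given a change by a factor of 1.5, edgeR found 24. Among 50 genes each, it found 38 for a factor of 2, 40 for a factor of 4 and 46 for a factor of 8. Far fewer genes were changed there than the 33.6% called in the real data, so these shares need not hold for the measured libraries. Positions and exon lengths came from GENCODE M21, on the same build, where all 81 members matched 1 gene. For 3 counts, the floor, a single library gives 0.123 to 0.136 CPM. Because reads carry no molecular identifiers, intervals cover only counting error. A fold against 3 counts leaves out the counting error of the group that had counts. Chi-square per degree of freedom was 11.5 between the libraries labelled KO and 3.37 between the controls, so no pair was a repeat of 1 library.

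Genes were named by a rule: up to 3 called members per role, by adjusted p, or where none was called the 2 of highest level; the type IV chains, Lama1, Lamb1, Lamc1, Itgb1, Itga6, Sparc, Serpinh1, Fn1, the nidogens and Hspg2; and 2 called genes with the smallest adjusted p from each other list. Other genes were named after their values were seen. Results for 2 single genes are not reported here.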

Additional observations from a re-analysis of the deposited data

How the results depend on the processing

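Over 11 alternatives, 19 of the 23 called members kept their call wherever they were tested (14 higher, 5 lower), and none of the 23 changed sign. The exceptions are Col12a1, Itga6, Itgav and Itgb5. The number of members that rose was 16, and 10 where 5 CPM was required in 2 libraries, which left 32 members to test. Leaving out 1 library gave 15 to 19 rises and 6 to 10 falls. The median log2 fold change of the 58 tested members was 0.13, beside 0.00 for all genes tested. With scaling by library size alone it was 0.21, beside 0.09 for all genes tested. With no low-count filter it was 0.29 over 79 members, beside 0.04 for all genes. It was 0.10 at 5 CPM in 2 libraries and 0.11 to 0.18 without single libraries. The cause of these differences was not tested. Values near 0 changed sign for Lama1 (0.031 with library size alone), Serpinh1 (-0.0097 without control 2, 0.238 without control 1) and Nid2 (-0.0029 without control 1). The labels number the libraries 1 and 2 in each group and do not say that a number marks a shared culture or day, and same-numbered libraries did not deviate together (r = 0.01 across genes). With a replicate block 17 members rose and 8 fell, with a median of 0.13. Without control 1 the number of all genes that rose was 1915, against 2877. Depth limited the comparison for the 23 untested members.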
